A study of Mus musculus with 2 samples.

Results

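The 5 genes of the Mir302 to Mir367 cluster, Mir302a, Mir302b, Mir302c, Mir302d and Mir367, were followed in small-RNA libraries from the facial prominences of mouse embryos. They were taken by name, and all 5 were found among the 1973 microRNA genes of the count tables. Facial prominences are the swellings of neural crest mesenchyme and covering ectoderm that fuse into the face. Total RNA came from B6NCrl embryos of 11.5 days, both sexes together, labelled as healthy. There was 1 group with 2 biological replicates, a pool of 109 embryos and a pool of 88, which the labels trace to the same donor entry. No treatment, genotype or second tissue is named, so levels can be compared between genes of a library and between pools, not between conditions.

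The cluster is read as a single primary transcript, from which each hairpin is cut and processed into short mature strands. Bases 2 to 8 of a mature strand, its seed, do most of the pairing with target messages, and loci with the same seed can address the same sites. The Mir302 genes are best known from pluripotent stem cells and the early embryo, where they favour cell cycle progression and hold back differentiation. Mir367 carries an unrelated seed, that of the Mir25 and Mir92 family.

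The mature strands are shown to make clear which members can stand in for which. They are RefSeq's, on GRCm38.p6, and run 5′ to 3′ with the seed in capitals. Those of the 3′ arm were
miR-302b-3p: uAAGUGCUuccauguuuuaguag
miR-302c-3p: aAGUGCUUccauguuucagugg
miR-302d-3p: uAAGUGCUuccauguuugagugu
miR-367-3p: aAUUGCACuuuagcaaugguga
and those of the 5′ arm were
miR-302a-5p: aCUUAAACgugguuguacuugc
miR-302b-5p: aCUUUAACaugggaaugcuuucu
miR-302c-5p: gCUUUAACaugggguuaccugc
miR-302d-5p: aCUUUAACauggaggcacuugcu
miR-367-5p: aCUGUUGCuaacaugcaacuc
The strand miR-302a-3p was not used here. The 3′ strands of Mir302b and Mir302d had the same seed, AAGUGCU. Counted from the 5′ end of miR-302b-3p, they differed by U18G, A22G and G23U, and 17 bases in a row were shared. The annotated miR-302c-3p begins 1 base later, so its bases 2 to 8 read AGUGCUU. Over the 22 bases that then align with miR-302b-3p, 20 were identical, and the differences were U18C and A22G. On the 5′ arm, Mir302b, Mir302c and Mir302d had the seed CUUUAAC and Mir302a had CUUAAAC.

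All 5 hairpins lie on the plus strand of chromosome 3 (mm10, the same assembly as GRCm38) within 580 bases. In order along the transcript these are Mir302b (ENSMUSG00000076252.1, chr3:127545228-127545301), Mir302c (ENSMUSG00000065482.1, chr3:127545363-127545430), Mir302a (ENSMUSG00000065552.1, chr3:127545496-127545564), Mir302d (ENSMUSG00000065447.1, chr3:127545624-127545689) and Mir367 (ENSMUSG00000065413.2, chr3:127545733-127545807). Gaps of 61, 65, 59 and 43 bases separate them. The cluster sits inside an intron of 1547 bases of Larp7, a gene for an RNA-binding protein of the 7SK complex, which is read from the minus strand. No annotated Larp7 exon overlapped a hairpin, and the nearest began 18 bases after Mir367.

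The libraries held 1941745 and 2319881 sense counts at microRNA genes in replicates 1 and 2. Levels are counts scaled to 1000000 of that total (CPM), and a count was worth 0.515 and 0.431 CPM. Intervals in brackets are exact 95% Poisson or binomial ones and cover counting error only. No molecular identifiers are named, so amplified copies of a molecule can count as separate reads, and the intervals may be too narrow. Of the tables' genes, 17.8% reached at least 10 counts in both libraries. Facial tissue was represented by all 5 listed mesenchymal loci (39069 and 41311 CPM in sum) and all 7 epithelial loci (33088 and 29540 CPM). Most of the mesenchymal sum was Mir214 (28519 and 31478 CPM), and the lowest of the 5 was Mir199a-1 (21.6 and 23.3 CPM). With 2 libraries of 1 group no test between groups exists, and the spread given is that between the pools.

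Which genes of the cluster were present was asked first. The 4 Mir302 genes were well above the minimum of 10 counts, and Mir367 was near 0. Mir302a had 3543 counts in replicate 1, or 1825 CPM (1765 to 1886), and 3837 in replicate 2, or 1654 CPM (1602 to 1707). Its mean of 1739 ± 121 CPM (SD, n = 2) was the highest of the cluster and placed it 88th of 1973. Mir302d had 3501 counts, or 1803 CPM (1744 to 1864), and 3521 counts, or 1518 CPM (1468 to 1569), with a mean of 1660 ± 202 CPM and rank 91. Both genes were higher in replicate 1, and their values in the pools overlapped in range.

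Mir302b, the first hairpin of the transcript, had 2864 counts, or 1475 CPM (1421 to 1530), and 3037 counts, or 1309 CPM (1263 to 1357). Its mean was 1392 ± 117 CPM, at rank 95. Mir302c, only 61 bases downstream, had 418 counts, or 215 CPM (195 to 237), and 523 counts, or 225 CPM (207 to 246). Its mean of 220 ± 7.19 CPM put it at rank 174. Every Mir302c value lay below every value of the other Mir302 genes.

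Mir367, the last hairpin and the member with the separate seed, had 0 counts in replicate 1 and 2 in replicate 2. The 0 has an interval of 0 to 1.90 CPM and is drawn at a fixed limit of 3 counts, or 1.55 CPM. The 2 counts stand for 0.862 CPM (0.104 to 3.11). Both libraries were thus low, and neither can show whether Mir367 was absent or present at about this level.

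**Figure D1:**
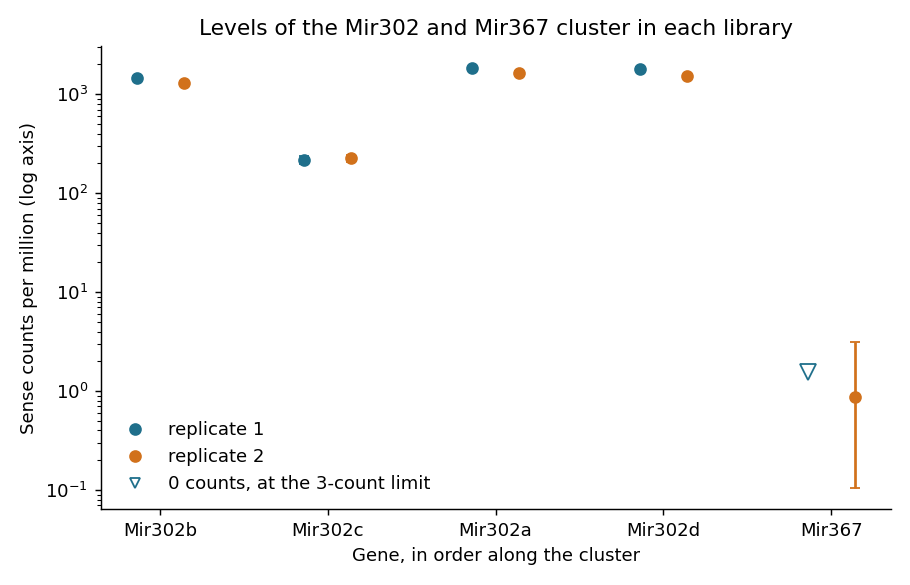
Sense CPM (log axis) of the 5 genes, in order along the transcript, with 1 point per library and exact 95% counting intervals, which are smaller than the symbol for most Mir302 values. The open triangle marks 0 counts, drawn at the fixed limit of 3 counts. Mir302b, Mir302a and Mir302d lie between 1309 and 1825 CPM and Mir302c at 215 and 225 CPM. The points of Mir367 are drawn at 1.55 CPM for replicate 1 and 0.862 CPM for replicate 2.

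Together the cluster took 10326 counts in replicate 1, or 0.532% of the library (0.522 to 0.542), and 10920 in replicate 2, or 0.471% (0.462 to 0.480). The mean share was 0.501% ± 0.0432 (SD, n = 2). Among the 43 clusters with at least 2 loci at a mean of 10 counts, where a cluster means same-strand loci spaced by no more than 10 kb, its summed level was 23rd. It was thus a mid-ranking cluster of these libraries.

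The composition of the cluster repeated closely. Mir302a gave 34.3% (33.4 to 35.2) of the cluster's counts in replicate 1 and 35.1% (34.2 to 36.0) in replicate 2. Mir302d gave 33.9% (33.0 to 34.8) and 32.2% (31.4 to 33.1), and Mir302b 27.7% (26.9 to 28.6) and 27.8% (27.0 to 28.7). Mir302c added 4.05% (3.68 to 4.45) and 4.79% (4.40 to 5.21). For each of these genes the intervals of the libraries overlapped, narrowly for Mir302d and Mir302c. Mir367 gave 0, which allows up to 0.0291%, and 0.0183% (0.00222 to 0.0661).

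**Figure D2:**
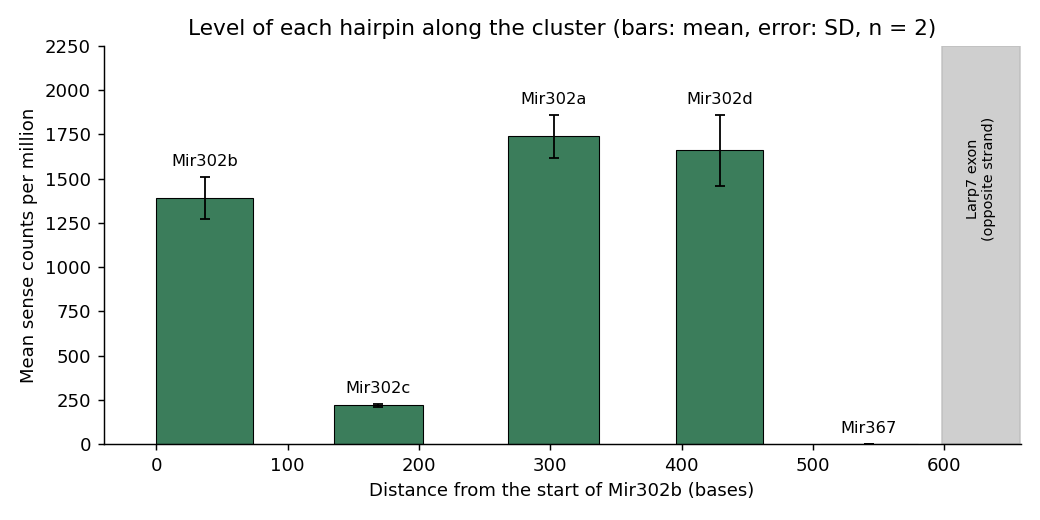
Mean sense CPM of each hairpin (bar, as wide as the hairpin; error bar, SD, n = 2) against its distance in bases from the start of Mir302b. The grey band is the first part of the nearest Larp7 exon, on the opposite strand; levels do not fall steadily along the transcript, since Mir302c at 220 CPM stands between Mir302b at 1392 CPM and Mir302a at 1739 CPM, and the bar of Mir367 is too low to see.

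How far the members differed from each other was then compared within each library, which removes the scaling. A difference was called when, in each library, its log2 size was above the pool-to-pool log2 ratio of either gene. Of the 6 pairs among the Mir302 genes, 4 were called, where 93.5% of 643 pairs of loci within clusters were. Mir302a exceeded Mir302c by a log2 ratio of 3.08 (2.94 to 3.23) in replicate 1 and 2.88 (2.74 to 3.01) in replicate 2, a mean of 7.89-fold. Mir302d exceeded Mir302c by 3.07 and 2.75, and Mir302b exceeded it by 2.78 and 2.54, or 7.51-fold and 6.31-fold on average. Mir302c was therefore lower than each other Mir302 gene by much more than the pools differed.

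The 3 abundant genes stood close together. Mir302a exceeded Mir302b by a log2 ratio of 0.31 (0.24 to 0.38) and 0.34 (0.27 to 0.41), which was called. Mir302d exceeded Mir302b by 0.29 (0.22 to 0.36) and 0.21 (0.14 to 0.28), which was not, because Mir302d itself moved by 0.25 between the pools. Mir302a and Mir302d differed by 0.02 (-0.05 to 0.08) in replicate 1 and 0.12 (0.06 to 0.19) in replicate 2, also within the difference between pools. The order at the top of the cluster is thus set only between Mir302a and Mir302b.

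Mir367 could be compared through limits. Against the fixed limit of 3 counts, Mir302d, its neighbour 43 bases upstream, was 1167-fold higher in replicate 1. Mir302c, the lowest Mir302 gene, was 139-fold higher than that limit. In replicate 2, with 2 counts at Mir367, the ratios were 1761-fold (487 to 14543) for Mir302d and 262-fold (72.0 to 2165) for Mir302c. These are ratios of sequenced counts. Differences in how well each strand is ligated, amplified and placed at a single position also enter them, and their part was not tested.

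A low locus in a cluster was common in these tables, but mostly in a single place. In the 13 clusters of at least 3 loci whose most abundant locus had a mean of at least 1000 counts, 106 of 186 other loci (57.0%) were under 10 counts in both libraries. A cluster of 107 loci on chromosome 2 held 98 of them. Its symbols include numbered copies, such as Mir467a-1 to Mir467a-10, and reads placed at several positions are counted apart from the genes. How far this lowers the counts of its loci was not tested, so they are an uncertain measure for Mir367. In the remaining 12 clusters, split off after the values were seen, 8 of 80 loci were under 10 counts in both, and Mir367 was among them. With 0.5 counts added, Mir367 was 11.35 log2 units below Mir302a and Mir302c was 2.98 below. Over all 186 loci the median distance below the top of the cluster was 11.31, and 93 of 186 were at least as far below as Mir367. Over the 80 loci outside the cluster on chromosome 2 the median was 4.20, and 8 of the 80, Mir367 included, reached its distance. These 80 also include numbered copies, such as Mir19b-1 and Mir450-2, whose counts may be lowered in the same way. Between direct neighbours, the step from Mir302d to Mir367 was 11.28, and 7 of 186 such steps in the 13 clusters, this one included, were that large. Most of the 186 steps lie in the cluster on chromosome 2, where steps between 2 loci near 0 are small. They were not counted without it.

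**Figure D3:**
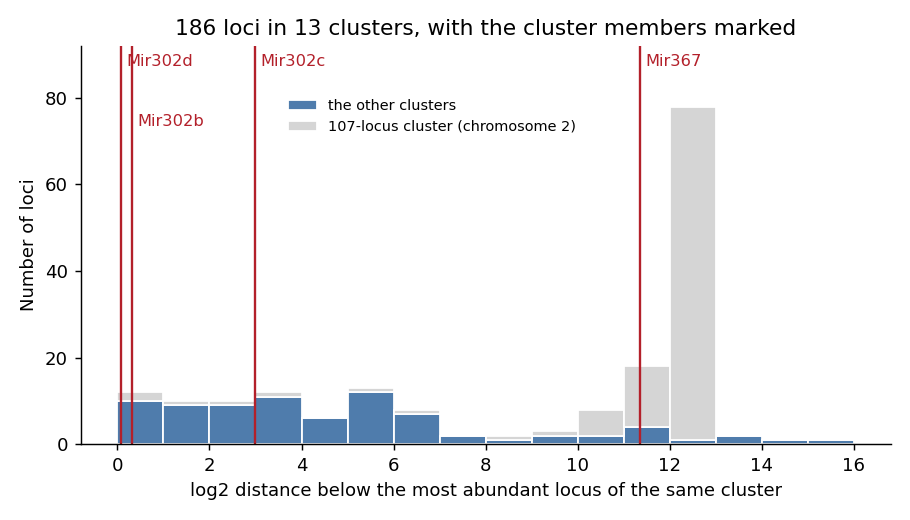
Number of loci by their log2 distance in CPM (0.5 counts added) below the most abundant locus of the same cluster, for 186 loci in 13 clusters; light bars are the 107-locus cluster on chromosome 2. Red lines mark Mir302d, Mir302b and Mir302c at 0.07, 0.32 and 2.98 below Mir302a, and Mir367 at 11.35.

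Sequence bears on how complete these counts are, because reads placed at several positions (22.7% and 20.5% of all reads) stand on a line apart from the genes. The longest run that the Mir302a hairpin shared with another member was 20 bases, with Mir302b. Mir302d shared 17 bases with Mir302a, and Mir302c shared 16. Mir367 shared at most 9 bases with a member. With the other hairpins of the RefSeq table (1004 compared in all), no member shared more than 13 bases, and Mir367 no more than 11. How many reads of any member fell into the class placed at several positions was not tested.

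All 21246 counts of the cluster lay on the sense strand, and 0 were found on the opposite strand, that of Larp7, in either library. Of 257 loci with a mean of at least 100 counts, 233 (90.7%) also had none there, so this is the usual state of a locus in these tables.

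The seeds place the cluster among other loci of the libraries. Those sharing AAGUGCU with Mir302b and Mir302d belong to the Mir290 to Mir295 cluster on chromosome 7, which is known from embryonic stem cells. Its strands are shown for the shared seed and the different 3′ part.
miR-291a-3p: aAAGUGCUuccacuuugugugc
miR-294-3p: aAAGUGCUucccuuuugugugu
miR-295-3p: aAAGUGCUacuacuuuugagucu
Mir294 stood at 85.0 and 93.1 CPM, Mir291a at 9.27 and 8.19 CPM, and Mir295 at 2.06 and 2.59 CPM. Mir302b and Mir302d therefore carried 97.1% (96.7 to 97.5) of the counts at the 5 loci with this seed in replicate 1 and 96.5% (96.0 to 96.9) in replicate 2. The 5 loci summed to 0.315% ± 0.0314 of the library (SD, n = 2). Mir302a is outside this sum because miR-302a-3p was not used. The sum and the shares thus leave out the most abundant member, whose 3′ seed was not compared. They also count both arms of each hairpin, since counts at single genes cannot tell the arms apart. They are amounts of loci, not of strands with the seed.

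As whole clusters, the 5 members exceeded the 7 measured genes of the Mir290 cluster 26.5-fold in replicate 1 (5318 against 200 CPM) and 22.5-fold in replicate 2 (4707 against 209 CPM). Of those 7, 4 reached 10 counts in both libraries. After Mir294 came Mir293 at 71.1 and 73.3 CPM and Mir292 at 27.3 and 29.7 CPM, while Mir291b had 10 and 5 counts and Mir290a 1 and 1. Each detected Mir290 gene was below Mir302c.

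Loci of the Mir17 family carry a seed shifted by 1 base against that of Mir302b, as in
miR-17-5p: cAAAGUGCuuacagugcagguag
They are known for promoting growth and were far more abundant. The 6 listed genes (Mir17, Mir20a, Mir20b, Mir93, Mir106a and Mir106b) summed to 123976 and 121209 CPM, 23.3-fold and 25.8-fold the Mir302 cluster. The lowest of them, Mir20b, at 1452 and 1484 CPM, was level with Mir302b: Mir302b over Mir20b was 0.02 and -0.18 on the log2 scale.

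The seed of Mir367 was well represented by other loci. Their strands are shown because all have AUUGCAC and differ after it.
miR-92a-3p: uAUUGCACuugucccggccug
miR-92b-3p: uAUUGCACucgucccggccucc
miR-363-3p: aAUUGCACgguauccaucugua
miR-25-3p: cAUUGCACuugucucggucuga
miR-32-5p: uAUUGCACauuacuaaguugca
The 7 loci with this seed took 1.26% of the library in replicate 1 and 1.42% in replicate 2. Mir92-1, of the Mir17 cluster, led with 6889 and 7763 CPM. Mir92b, found by the seed search and on no fixed list, had 2039 and 2625 CPM, and Mir363, of the related cluster on the X chromosome, 1949 and 1911 CPM. Mir25 had 882 and 957 CPM. Mir92-2, whose mature strand is the same as that of Mir92-1, had 454 and 546 CPM, and Mir32 had 415 and 399 CPM. Reads of the strand shared by Mir92-1 and Mir92-2 could be placed at both loci and so be counted at neither. How many were missed was not tested. The family sum and the share of Mir367 cover assigned counts only, and those of both arms of each hairpin. Mir367 was the lowest of the 7. Its share of the family was 0 (0 to 0.0150%) in replicate 1, where the limit of 3 counts is 0.0122%. In replicate 2 it was 0.00607% (0.000735 to 0.0219).

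**Figure D4:**
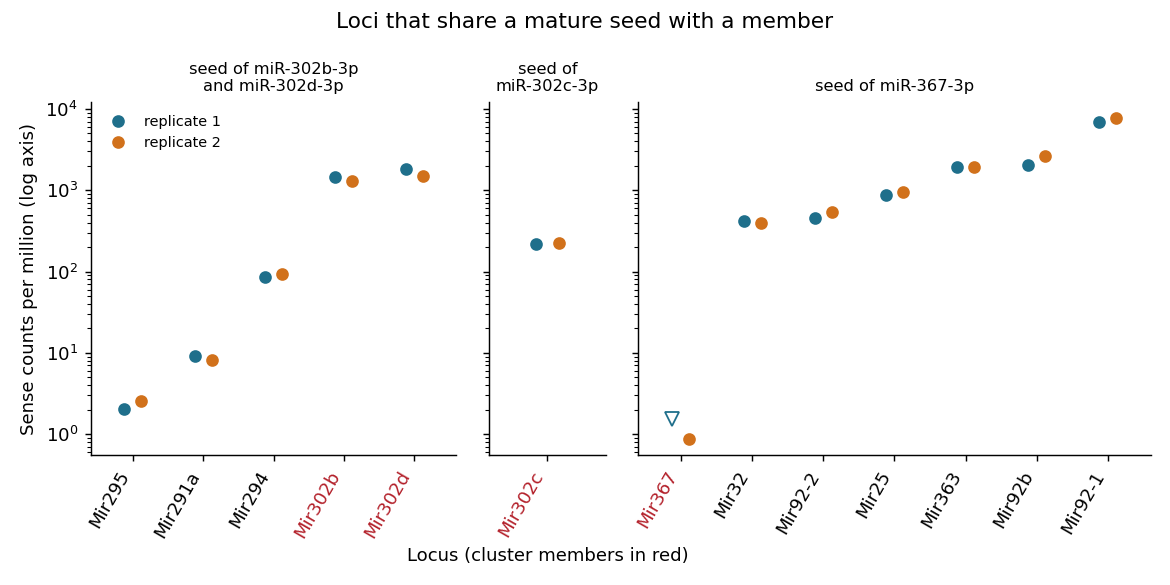
Sense CPM (log axis) in each library for the loci whose mature strand has the seed of a member, with members named in red; the open triangle marks 0 counts at the limit of 3 counts. Mir302a is not drawn, since miR-302a-3p was not used; of the loci drawn, Mir302b and Mir302d are the highest of their seed group, Mir302c is alone with its annotated seed, and Mir367 lies below the 6 other loci of its group, which range from 399 to 7763 CPM.

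The pools were compared last, to see how well the members repeat. Mir302d had a log2 ratio of replicate 2 over replicate 1 of -0.25 (-0.32 to -0.18), Mir302b of -0.17 (-0.25 to -0.10) and Mir302a of -0.14 (-0.21 to -0.08). Mir302c went the other way at 0.07 (-0.12 to 0.26), an interval that includes 0. The 3 abundant genes were thus lower in replicate 2 by 1.10-fold to 1.19-fold, more than these counting intervals cover. The cluster as a whole was lower by 1.13-fold (log2 ratio -0.18, -0.21 to -0.14). None of the 4 Mir302 genes passed 2-fold, where 1.95% of the 257 loci with a mean of at least 100 counts did. The median size of the log2 ratio over those loci was 0.14, and 125, 106, 192 and 64 of them had a larger one than Mir302a, Mir302b, Mir302c and Mir302d. By sign, 3 of the 4 were lower in replicate 2, where 49.4% of the 257 loci were. The lower and upper quartiles of the ratio were -0.11 and 0.17, and 52, 44 and 26 of 257 loci had a lower ratio than Mir302a, Mir302b and Mir302d. The sizes of the members' ratios were thus like those of many loci, and the 3 abundant genes lay on the low side.

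**Figure D5:**
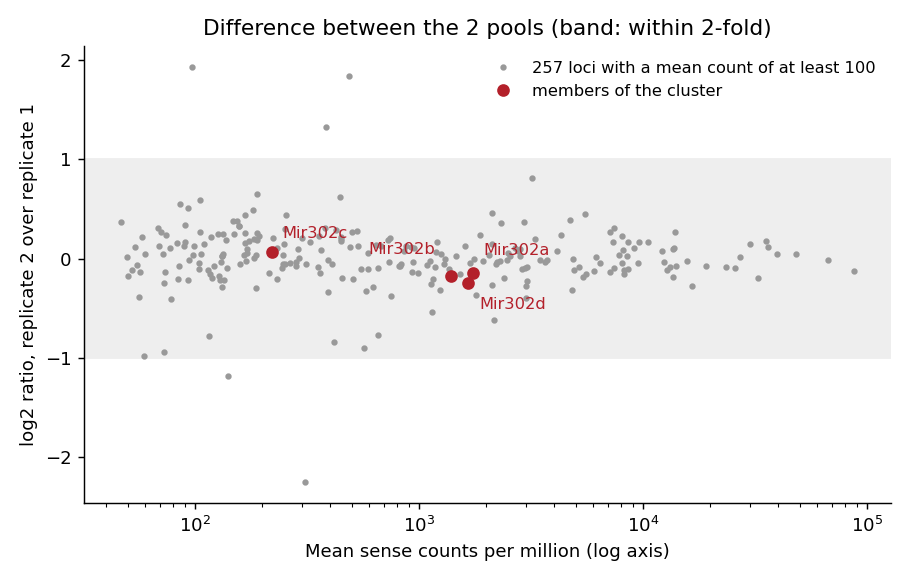
The log2 ratio of replicate 2 over replicate 1 against the mean sense CPM (log axis) for 257 loci with a mean of at least 100 counts (grey), with the Mir302 genes in red and the range within 2-fold shaded. The 4 genes lie between -0.25 and 0.07, within 2-fold, with Mir302a, Mir302b and Mir302d below the lower quartile of all loci at -0.11 and Mir302c between the quartiles.

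Listed loci of some other tissues also differed between the pools. Of the 363 loci with a mean of at least 10 counts, 48.8% were lower in replicate 2. The epithelial loci were lower there in 7 of 7 cases, from -0.04 for Mir205 to -0.40 for Mir200b on the log2 scale, so none passed 2-fold. None was at 0, and the sums are given above. Of 10 measured neural loci, 6 had a mean of at least 10 counts and 4 of these were lower, the sum going from 2615 to 2137 CPM, with Mir124a-3 at 0 in both libraries. The 3 lens, retina and choroid loci were all lower, at 2075 and 986 CPM in sum and with none at 0. In the opposite direction, the 8 measured heart and skeletal muscle loci went from 628 to 1494 CPM (4 of 5 with a mean of at least 10 counts were higher, Mir133a-1 and Mir133a-2 were at 0), and the erythroid Mir144 and Mir451a from 264 to 593 CPM (1 of 2 higher). Some listed symbols are numbered copies, among them Mir124a-3, Mir133a-1 and Mir133a-2. Reads that match more than 1 copy can go uncounted at each of them, so a 0 there does not show absence. How far this lowers the sums of the lists was not tested. The part of tissue composition in the ratios of the Mir302 genes was not tested either. In pooled tissue, fewer cells of a type and less RNA per cell cannot be told apart.

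The neighbours of each Mir302 gene in the order of all loci are named to place its level. None differed from it beyond the spread between pools, which picking them by nearest mean makes likely. Mir302a lay between Mir467d (1759 ± 2.75 CPM) and Mir674 (1691 ± 38.3 CPM), and Mir302d between Mir433 (1675 ± 197 CPM) and Mir1193 (1599 ± 101 CPM). Mir302b followed Mir20b and preceded Mir199b (1361 ± 72.2 CPM), a mesenchymal locus. Mir302c stood between Mir199a-2 (222 ± 23.0 CPM) and Mir410 (213 ± 15.2 CPM). The 5 loci most like the median of the cluster, by Euclidean distance in log2(CPM + 1) over the 2 libraries, were Mir199b (0.06), Mir337 (0.17), Mir455 (0.18), Mir20b (0.18) and Mir341 (0.19). The median of the 5 members was the value of Mir302b in each library. With 2 libraries of 1 group this likeness means a level similar to that of Mir302b, little more.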

How the data were processed

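For each library the authors deposited unnormalized counts by microRNA gene, on mm10 with the GENCODE M4 annotation per the file headers of the accompanying text. How reads were aligned and counted is not given in the sources used here. The tables hold counts irrespective of strand, sense counts and opposite-strand counts. Sense counts were used. Lines that name no gene stayed out of library totals: the sense counts were 40.8% of 4755968 reads in replicate 1 and 34.2% of 6781929 in replicate 2.

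Symbols came from GENCODE M21 (GRCm38), which matched 1894 of 1973 identifiers and all 5 members, and sequences from RefSeq, in which 927 loci had an entry by symbol. CPM used the total of sense counts. Pool ratios used loci with a mean of at least 100 counts. TMM (edgeR 4.0.16) and DESeq2 1.42.0 factors (R 4.3.3) served as alternatives; no model was fitted. Other steps used Python 3.11.15, scipy 1.17.1 and matplotlib 3.10.9. The calling of 2-fold ratios was tested on simulated counts with larger planted changes, which does not show how ratios near 2-fold are called.

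The members and lists were chosen with earlier results of these data known. Named were the members, the listed seed and cluster loci, neighbours in the order of levels and the 5 most similar loci with a mean of at least 100 counts. Of the listed loci, Mir290b, Mir292b, Mir9-1 and Mir1a-2 were not analysed here. The remaining fixed lists had Mir126a at 39037 and 40424 CPM, Mir122 at 16.0 and 44.0 CPM, and the lung and gut endoderm list (4 loci) at 1020 and 1052 CPM in sum.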

Additional observations from a re-analysis of the deposited data

How the results depend on the processing

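TMM factors, DESeq2 size factors and counts irrespective of strand moved no level, share, ratio or call of the members beyond the spread between pools or the counting interval, and 10 added counts changed none of the 6 differences between Mir302 genes, of which 4 remained past the limit. Against a total without the 10 most abundant loci, the means of Mir302a, Mir302b, Mir302c and Mir302d were 3049, 2440, 386 and 2911 CPM, the cluster's share was 0.879%, and the seed groups of Mir302b with Mir302d and of Mir367 took 0.553% and 2.35%. As CPM of all reads, unassigned ones included, a setting chosen after seeing the data, these were 655, 525, 82.5 and 628 CPM, 0.189%, 0.119% and 0.501%. That setting moved the median log2 pool ratio of all loci from 0.01 to -0.25, and those of Mir302a, Mir302b, Mir302c, Mir302d and the cluster to -0.40, -0.43, -0.19, -0.50 and -0.43, so that Mir302c changed sign; 4.28% of loci then passed 2-fold. With a minimum mean count of 20, 3.89% of loci did, and 16.0% with at least 1 count in both libraries, but 0 members in each case. A seed of bases 2 to 7 raised the share of the Mir302b and Mir302d group to 0.352%. Leaving out each replicate gave the single-library values above: 1654 to 1825, 1309 to 1475, 215 to 225, 1518 to 1803 and 0 to 0.862 CPM for Mir302a, Mir302b, Mir302c, Mir302d and Mir367, and 0.471% to 0.532% for the cluster. No paired analysis was possible because there is 1 group. Counts at single genes cannot tell the arms of a hairpin apart, and depth limits the level of Mir367 and the direction of Mir302c between the pools.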
